A study of Mus musculus with 2 samples.

Results

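The 7 haemoglobin genes described here are the embryonic and adult globins of the mouse. They comprise 3 alpha-type genes, Hba-x, Hba-a1 and Hba-a2, and 4 beta-type genes, Hbb-y, Hbb-bh1, Hbb-bs and Hbb-bt. They were chosen by symbol, matched by Ensembl identifier, and all 7 were found in both gene tables among 43346 mouse genes. Hba-x, Hbb-y and Hbb-bh1 are the embryonic genes, and Hba-a1, Hba-a2, Hbb-bs and Hbb-bt are the adult ones.

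RNA was taken from the neural tube, from which brain and spinal cord develop, of B6NCrl mouse embryos at embryonic day 12.5. The labels give 1 group with no treatment and no genetic change, made of 2 biological replicates, each a pool of embryos of both sexes. Replicate 1 held 120 embryos and replicate 2 held 88, both under the same donor identifier, and 10 ng of RNA longer than 200 nucleotides went into each library. With 1 group there was no second stage, tissue or treatment to compare, so values are given per library and as mean ± SD (n = 2), with no p-value. Levels are deposited TPM values, a measure of transcript abundance scaled for transcript length and sequencing depth. The libraries held 31610805 and 33530172 expected counts on mouse genes, and 0 counts leave room for up to 0.0949 and 0.0895 CPM in them (counts scaled to the library total, from 3 counts, counting error only).

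Haemoglobin is the oxygen carrier of red blood cells and joins alpha-type with beta-type chains around haem. Each chain type is encoded by a cluster of neighbouring genes, in which the embryonic genes lie before the adult ones in the direction of transcription. The first red cells of the mouse embryo arise in the yolk sac, circulate with their nuclei and make embryonic chains, together with adult alpha chains. Later red cells, first from the fetal liver, make adult chains, and the replacement of one set by the other is known as globin switching. A dissected tissue holds blood beside its own cells, and which cells held the globin RNA was not tested. In pooled tissue, fewer cells of a type and less RNA per cell cannot be told apart.

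The genes lie in 2 clusters, given here on GRCm38 with GENCODE M21 gene models. The alpha cluster is on the plus strand of chromosome 11, with Hba-x (ENSMUSG00000055609) at chr11:32276400-32278116, Hba-a1 (ENSMUSG00000069919) at chr11:32283511-32284465 and Hba-a2 (ENSMUSG00000069917) at chr11:32296489-32297298. The beta cluster is on the minus strand of chromosome 7, so its genes are read towards lower coordinates. In the direction of transcription it holds Hbb-y (ENSMUSG00000052187) at chr7:103851749-103853216, Hbb-bh1 (ENSMUSG00000052217) at chr7:103841637-103843164, Hbb-bs (ENSMUSG00000052305) at chr7:103826534-103828096 and Hbb-bt (ENSMUSG00000073940) at chr7:103812524-103813996. The longest coding transcript of each of the 7 genes has 3 exons, and the coding sequence is 429 bases in each alpha-type gene and 444 in each beta-type gene.

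The starts of the coding sequences are printed because they show which members reads can tell apart. Each line gives bases 1 to 90 from the start codon, read 5′ to 3′ from the GRCm38 transcripts. Capitals mark bases that differ from the adult copy of the same chain type, Hba-a2 for the alpha lines and Hbb-bt for the beta lines. Hba-a1 is identical to Hba-a2 over these bases, and Hbb-bs to Hbb-bt, so each adult pair is printed once.
Hba-x: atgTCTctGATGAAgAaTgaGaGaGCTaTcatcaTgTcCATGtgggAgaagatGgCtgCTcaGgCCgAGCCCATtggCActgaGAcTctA
Hba-a2: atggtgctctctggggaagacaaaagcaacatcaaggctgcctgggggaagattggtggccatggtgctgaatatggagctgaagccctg
Hbb-y: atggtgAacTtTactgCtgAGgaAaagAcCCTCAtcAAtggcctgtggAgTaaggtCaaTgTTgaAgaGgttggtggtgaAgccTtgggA
Hbb-bh1: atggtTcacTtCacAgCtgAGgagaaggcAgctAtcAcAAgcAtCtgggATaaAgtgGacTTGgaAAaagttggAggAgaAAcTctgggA
Hbb-bt: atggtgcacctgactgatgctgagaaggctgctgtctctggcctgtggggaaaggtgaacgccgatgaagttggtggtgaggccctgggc

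Of these 90 bases, 44 differed between Hba-x and Hba-a2, 26 between Hbb-y and Hbb-bt, and 29 between Hbb-bh1 and Hbb-bt. Over the whole coding sequence Hba-x was 61.8% identical to Hba-a2. Hbb-y was 76.4% identical to Hbb-bh1 and 74.1% identical to Hbb-bt. The embryonic genes are therefore far from the adult ones in sequence, whereas the adult copies are nearly the same.

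Hba-a1 and Hba-a2 differed at 1 coding base, C381T (Hba-a1 first, counted from the first base of the start codon). Hbb-bs and Hbb-bt also differed at 1, C417T (Hbb-bs first). The next lines print these sites, with the differing base in capitals, as coding bases 352 to 411 of the alpha copies and 385 to 444 of the beta copies.
Hba-a1: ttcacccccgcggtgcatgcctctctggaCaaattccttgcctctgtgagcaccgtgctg
Hba-a2: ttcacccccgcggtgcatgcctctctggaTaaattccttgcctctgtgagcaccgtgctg
Hbb-bs: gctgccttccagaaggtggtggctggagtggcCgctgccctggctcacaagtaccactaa
Hbb-bt: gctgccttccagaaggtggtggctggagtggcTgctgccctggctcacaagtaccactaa

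Every 100-base stretch of the longest coding transcripts of Hba-x, Hbb-y and Hbb-bh1 was found in none of the longest coding transcripts of the other 6 genes (100%). In Hba-a1 and Hba-a2 43.5% and 25.5% of such stretches were their own, and in Hbb-bs and Hbb-bt 37.4% and 45.2%. Within the coding sequence the share fell to 14.8% for each alpha copy (49 of 330 stretches) and 8.12% for each beta copy (28 of 345). Counts of the 3 embryonic genes and the summed counts of each adult pair thus do not depend on how reads were divided between copies. The level of each adult copy alone is uncertain, and the summed TPM of a pair depends on the division through the lengths of the models.

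The 2 chain types were at different points between embryonic and adult genes in the same RNA. Among beta-type genes the embryonic Hbb-y and Hbb-bh1 made up 84.6% of the summed TPM in replicate 1 and 85.3% of it in replicate 2 (84.9% ± 0.540, SD, n = 2). Among alpha-type genes the embryonic Hba-x held 13.8% and 15.3% (14.5% ± 1.07), so that the adult copies Hba-a1 and Hba-a2 together held 85.5% ± 1.07. The adult beta copies Hbb-bs and Hbb-bt together held 15.1% ± 0.540.

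Expected counts are not corrected for transcript length. In counts the embryonic share of beta-type globin was 84.2% in replicate 1 (64782 of 76963 counts, exact Clopper-Pearson 95% interval 83.9% to 84.4%). In replicate 2 it was 84.9% (65820 of 77536, 84.6% to 85.1%). The embryonic share of alpha-type globin was 18.7% in replicate 1 (14003 of 75054 counts, 18.4% to 18.9%) and 20.6% in replicate 2 (15245 of 74013, 20.3% to 20.9%). Both embryonic shares were higher in replicate 2, by more than these intervals, which cover counting error only and not the spread between pools.

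**Figure D1:**
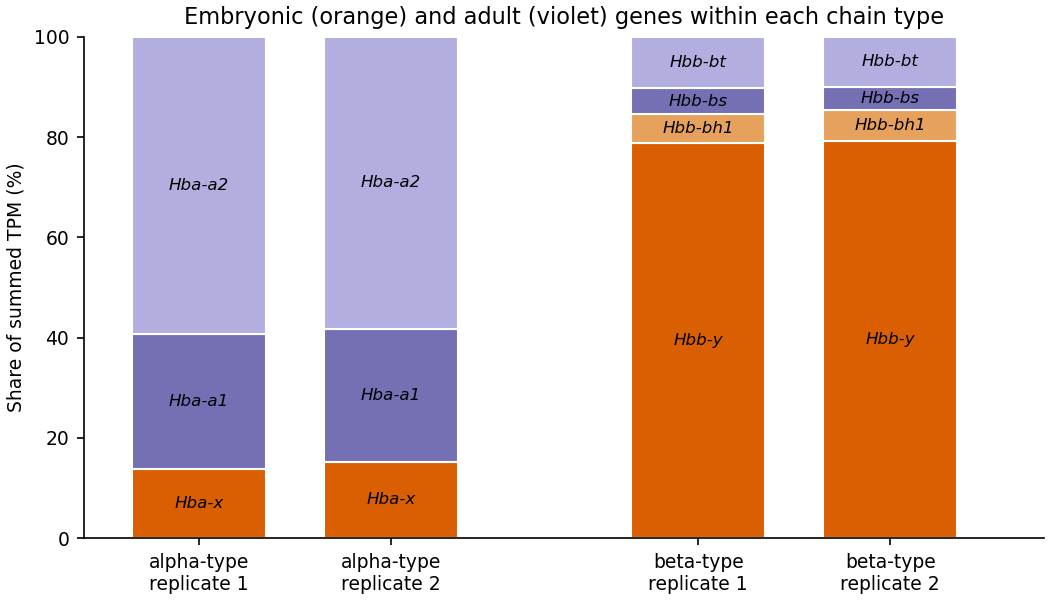
Share of summed TPM (percent, y axis) held by each gene within the alpha-type and the beta-type globins, 1 bar per library, with embryonic genes in orange and adult genes in violet. Hba-x fills 13.8% and 15.3% of the alpha bars, whereas Hbb-y and Hbb-bh1 together fill 84.6% and 85.3% of the beta bars.

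Hbb-y, the embryonic epsilon-type chain, had the highest listed level of the 7 genes taken singly, below the summed adult alpha copies (6804 and 6281 TPM). Its level was 5432 TPM in replicate 1 and 5298 TPM in replicate 2 (5365 ± 94.6 TPM), from 60710 and 61468 counts. That was 78.8% and 79.2% of beta-type TPM, and the gene ranked 6 and 7 among mouse genes.

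Hbb-bh1, the other embryonic beta-type gene and the one used earliest in yolk sac red cells, was far lower. It stood at 398 and 409 TPM (403 ± 8.32 TPM), 5.77% and 6.12% of beta-type TPM. Hbb-y was 13.7 and 12.9 times as high. Hbb-bh1 ranked 338 and 317, above the adult copy Hbb-bs at 391 and 482, whose level rests on the division of shared reads.

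Hba-x, the embryonic zeta-type alpha chain, stood at 1086 and 1133 TPM (1109 ± 32.7 TPM), from 14003 and 15245 counts. It was the only embryonic alpha-type gene among the members and ranked 73 and 66. GENCODE gives it 2 coding models, of which the longer, with 801 nucleotides, held 75.7% and 77.5% of its TPM.

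Hba-a2, an adult alpha copy, was listed at 4672 and 4322 TPM (4497 ± 247 TPM), second to Hbb-y among the 7. Hba-a1, its near-identical copy, was listed at 2132 and 1959 TPM (2045 ± 123 TPM). The estimate thus gave Hba-a2 2.19 and 2.21 times the level of Hba-a1, and 68.7% ± 0.106 of the adult alpha TPM. Summed, the adult alpha copies reached 6804 and 6281 TPM, from 61051 and 58768 counts.

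The adult beta copies were the lowest pair. Hbb-bt was listed at 703 and 670 TPM (687 ± 22.8 TPM) and Hbb-bs at 362 and 311 TPM (336 ± 35.7 TPM). Their sum was 1064 and 982 TPM, against 5829 and 5707 TPM for the embryonic beta genes. Hbb-bt held 67.2% ± 1.61 of the adult beta TPM, a division between copies that the sequence makes uncertain.

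From highest to lowest the order of levels was Hbb-y, Hba-a2, Hba-a1, Hba-x, Hbb-bt, Hbb-bh1 and Hbb-bs. The values of neighbours in this order did not overlap over the 2 libraries, and with 2 libraries no test was made. The narrowest gap lay between Hbb-bh1 (398 TPM at its lowest) and Hbb-bs (362 TPM at its highest), where the place of Hbb-bs also rests on how reads were divided between the beta copies. The place of Hbb-y above Hba-a2 rests on how reads were divided between the alpha copies, which summed to 6804 and 6281 TPM. The place of Hba-a1 above Hba-x depends on how reads assigned to the retained-intron model of Hba-a1 are treated. The Hba-a1 coding model alone averaged 509 TPM, below the 850 TPM of the longer Hba-x model and the 687 TPM of Hbb-bt. With each gene's counts over the length of its longest coding transcript, Hba-a1 stayed above Hba-x (21.6% and 14.6% of alpha-type globin).

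**Figure D2:**
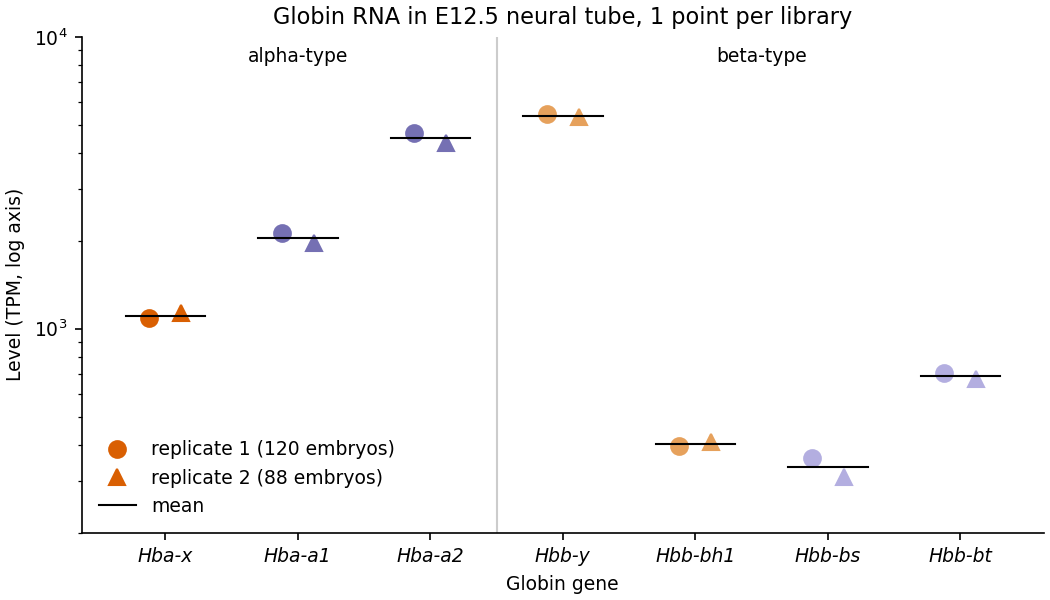
Level of each globin gene (TPM, log axis) in replicate 1 (circles) and replicate 2 (triangles), with the mean as a line, embryonic genes in orange and adult genes in violet. Both libraries give the same order, from Hbb-y at 5432 and 5298 TPM to Hbb-bs at 362 and 311 TPM.

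Alpha-type TPM summed to 7890 in replicate 1 and 7413 in replicate 2, and beta-type TPM to 6894 and 6689. The ratio of alpha-type to beta-type globin was 1.14 and 1.11 (1.13 ± 0.0256). Its side of 1 depended on the unit: from expected counts the mean was 0.965, and from the longest coding transcript of each gene alone it was 0.893. The 7 genes together held 14784 and 14102 TPM, or 1.48% and 1.41% of the TPM of all rows. Mouse genes held 92.6% and 92.7% of that total, and the rest lay in spike-in and number-named rows. In counts their share was 0.481% (exact 95% interval 0.478% to 0.483%) and 0.452% (0.450% to 0.454%), where the short length of globin transcripts is not corrected for.

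Transcript models entered these levels for the adult copies. Of Hba-a1 TPM, 23.4% in replicate 1 and 26.5% in replicate 2 were assigned to the coding model of 699 nucleotides. The remaining 76.7% and 73.5% were assigned to a model of 494 nucleotides that GENCODE classes as a retained intron. For Hba-a2 the coding model of 554 nucleotides received 100% in both libraries, and the matching retained-intron model received 0 counts. The retained-intron models of Hba-a1 and Hba-a2 held no 100-base stretch that was absent from every other globin transcript (0% of 395 for each), so reads of that length inside them name no single model.

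Hbb-bs showed the same kind of division. Its coding model of 778 nucleotides held 30.8% and 31.7% of TPM, and a retained-intron model of 549 nucleotides held 68.8% and 68.3%. In GENCODE M21 these models have 628 and 344 nucleotides, so the models changed between annotation versions. Hbb-y, Hbb-bh1 and Hbb-bt each had 1 model. Counting the longest coding transcript alone, the mean share of Hba-a1 in alpha-type globin became 8.70% in place of 26.7%, and that of Hbb-bs in beta-type globin 1.60% in place of 4.95%.

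**Figure D3:**
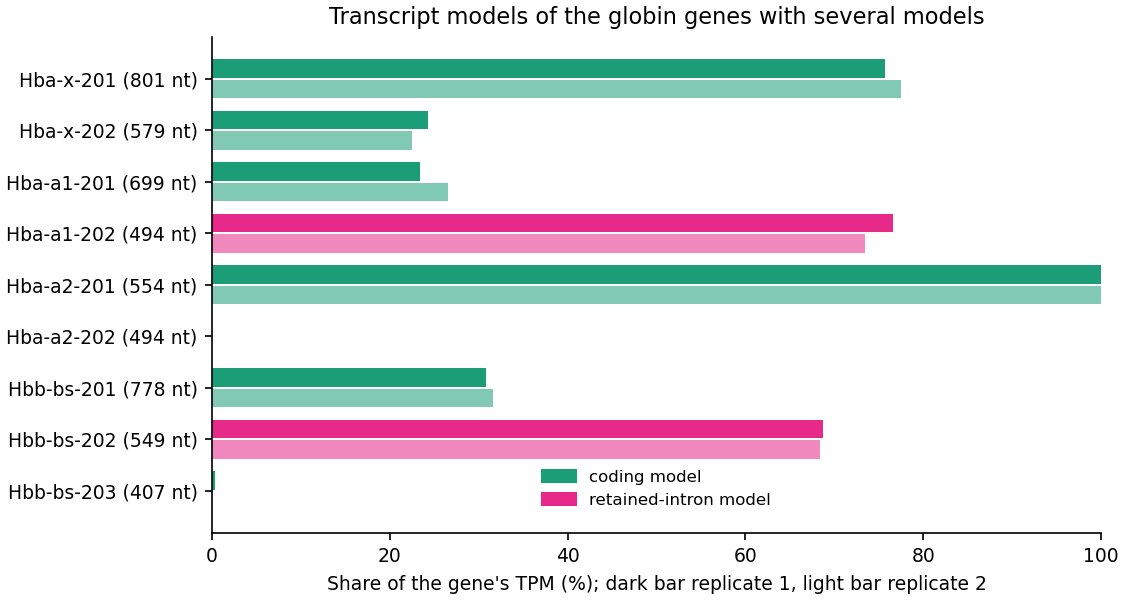
Share of a gene's TPM (percent, x axis) assigned to each transcript model of the globin genes with several models, with dark bars for replicate 1, light bars for replicate 2, green for coding and pink for retained-intron models. The retained-intron models hold 76.7% and 73.5% of Hba-a1 and 68.8% and 68.3% of Hbb-bs, but 0% of Hba-a2.

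The expected counts of the copies carried the uncertainty of that division. The deposited posterior SD was 175 and 165 counts for each of Hba-a1 and Hba-a2, and 70.2 and 66.8 for Hbb-bs. It was 0 for Hba-x, Hbb-y and Hbb-bh1, for which no reads were divided between genes. These posterior SDs cover the assignment of reads and not the spread between pools.

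Gene starts also differed between annotations. The coding model of Hba-a1 begins 161 bases before the RefSeq start and that of Hba-x 200 bases before it. The offset was 3 bases for Hba-a2, 9 for Hbb-y, 73 for Hbb-bt and 0 for Hbb-bs. A longer model lowers the TPM that a given count yields.

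The promoter table of RefSeq (GRCm38.p6) matched 6 of the 7 genes, all but Hbb-bh1. The promoters were compared by the longest exact stretch that a pair shares. Over windows of 300 bases, Hba-a1 and Hba-a2 shared a stretch of 297 bases. The longest stretch shared by Hbb-bs and Hbb-bt was 14 bases, by Hbb-y and Hbb-bs 12, and by Hba-x and Hba-a2 10. A single differing base ends such a stretch, so these lengths do not measure how alike 2 promoters are as a whole. The promoters of the 2 members with the highest listed levels are printed as 120 bases each. They run in the direction of transcription and end before the first base of any model of the gene. Capitals mark matches to the motifs that the next paragraph spells out. The Hba-a2 window is chr11:32296369-32296488 on the plus strand and the Hbb-y window is chr7:103853217-103853336 on the minus strand.
Hba-a2: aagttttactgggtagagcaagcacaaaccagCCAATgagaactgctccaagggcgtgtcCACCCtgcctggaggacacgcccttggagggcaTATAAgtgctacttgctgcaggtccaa
Hbb-y: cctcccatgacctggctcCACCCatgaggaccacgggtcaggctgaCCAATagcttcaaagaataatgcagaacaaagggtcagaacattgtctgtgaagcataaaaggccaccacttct

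These letters are those of elements known from globin promoters: the CACCC box bound by Klf1, the CCAAT box, the TATA box and the GATA motif of Gata1. In the 120 bases before the RefSeq start, searched on both strands, CACCC was found in all 6 promoters, against 31.7% of 32851 promoters in the table. CCAAT was found in 5 of 6, all but Hba-x (21.3% of all promoters), and TATAA in 5 of 6, all but Hbb-y (11.8%). GATAA was found in Hba-x alone among the 6 (10.5%). Only these exact letters were searched, so a variant of an element was not counted. TATAA lay 30 to 26 bases before the start in Hba-a2, and 28 to 24 in both Hba-x and Hbb-bt. Hba-a1 and Hba-a2 share nearly the same promoter sequence, so their matches are not separate observations. A match describes the letters of the window and is not evidence of binding.

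Other globin genes were near the limit of detection or low. Of 11 listed, 9 were matched. Hbq1b, a theta-type gene of the alpha cluster, stood at 2.69 and 2.62 TPM, and its copy Hbq1a at 0.54 and 0.34 TPM. Hbb-bh2, which lies between Hbb-bh1 and Hbb-bs, had 0 counts in replicate 1 and 3 in replicate 2. Hbb-bh3 and Hba-ps4 had 0 counts in both libraries. The pseudogene Hbb-bh0 was listed at 8.38 and 8.07 TPM, but from 5 counts in each library over a row of 129 nucleotides. Outside the clusters, cytoglobin (Cygb) stood at 5.56 and 5.68 TPM, myoglobin (Mb) at 1.87 and 1.29 TPM and neuroglobin (Ngb) at 0.40 and 0.49 TPM. Each was far below the lowest member, Hbb-bs.

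Most genes of the haem and red cell lists stood below the lowest globin, Hbb-bs, and the exceptions, Prdx2 and Bnip3l, belong to a list of red cell proteins that are mostly of the cytosol. All 8 genes of haem synthesis reached 1 TPM in both libraries, with a median of 39.3 ± 0.247 TPM. Urod (72.9 ± 5.18 TPM) and Alad (55.5 ± 2.04 TPM), which act between the first and last steps, were among the highest and Cpox (13.8 ± 0.785 TPM) was lowest. Alas2, the red cell form of the first enzyme, stood at 26.5 and 25.7 TPM. Apart from Alas2, these enzymes also serve haem synthesis in other cells.

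Iron uptake genes all reached 1 TPM in both libraries (6 of 6, median 18.6 ± 1.06 TPM). The transferrin receptor Tfrc (40.0 ± 0.240 TPM), transferrin itself, Trf (21.9 ± 0.537 TPM), and the iron transporter Slc11a2 (20.8 ± 1.80 TPM) were highest, and the ferric reductase Steap3 (1.83 and 1.17 TPM) lowest. Of 15 red cell membrane genes 14 reached 1 TPM in both libraries, with a median of 4.48 ± 0.247 TPM. Epb41 (141 ± 12.3 TPM), Add2 (54.7 ± 2.13 TPM) and Dmtn (19.1 ± 1.19 TPM), membrane skeleton genes that are also used outside red cells, led the list. All 7 matched genes of a list of other red cell proteins, mostly of the cytosol, reached 1 TPM in both libraries (median 53.0 ± 2.68 TPM), led by the peroxidase Prdx2 (1062 ± 46.2 TPM), the mitophagy receptor Bnip3l (351 ± 12.1 TPM) and catalase, Cat (73.5 ± 9.78 TPM). Hemgn, an erythroid nuclear protein, was lowest at 1.89 and 2.87 TPM, and Ahsp was not analysed here.

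The transcription factors of red cell formation were low. Of 9 such genes 8 reached 1 TPM in both libraries, with a median of 2.56 ± 0.0849 TPM. The adaptor Ldb1 (119 ± 2.88 TPM) and its partner Lmo2 (37.4 ± 1.07 TPM), which are not restricted to red cells, were highest, followed by Nfe2 (3.09 ± 0.665 TPM). Gfi1b was lowest (0.825 ± 0.0212 TPM). Gata1 and Klf1, the factors known to bind the motifs named above, stood at 1.00 and 1.22 TPM and at 2.77 and 3.27 TPM.

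All 15 regulators known from globin switching reached 1 TPM in both libraries (median 13.4 ± 0.856 TPM). The chromatin remodeller Chd4 (96.3 ± 4.72 TPM), the globin repressor Bcl11a (81.6 ± 2.53 TPM) and the RNA-binding protein Igf2bp1 (53.9 ± 9.46 TPM) were highest. Myb was lowest (2.76 ± 0.311 TPM). Several of these genes, Bcl11a and Sox6 (14.2 ± 0.177 TPM) among them, are also known in neurons or their progenitors, and bulk levels do not say which cells held the RNA.

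Marker lists of the tissue and of other cell types were read in the same way. All 8 neural tube markers reached 1 TPM in both libraries (median 81.6 ± 3.91 TPM, highest Tubb3 at 1017 ± 18.9 TPM). So did 8 of 9 red cell markers (median 2.76 ± 0.240 TPM, highest Alas2), 5 of 6 platelet markers (median 7.29 ± 0.559 TPM, highest Pf4 at 43.6 TPM) and 6 of 6 endothelial markers (median 18.3 ± 2.23 TPM, highest Cldn5 at 46.3 TPM). Of 7 leukocyte markers 3 did (median 1.03 ± 0.148 TPM, highest Lyz2 at 14.1 TPM). Of 8 liver markers 3 did (median 0.583 ± 0.194 TPM, highest Apoa2 at 5.36 TPM), and the hepatocyte factor Hnf4a was listed at 0.01 and 0 TPM.

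**Figure D4:**
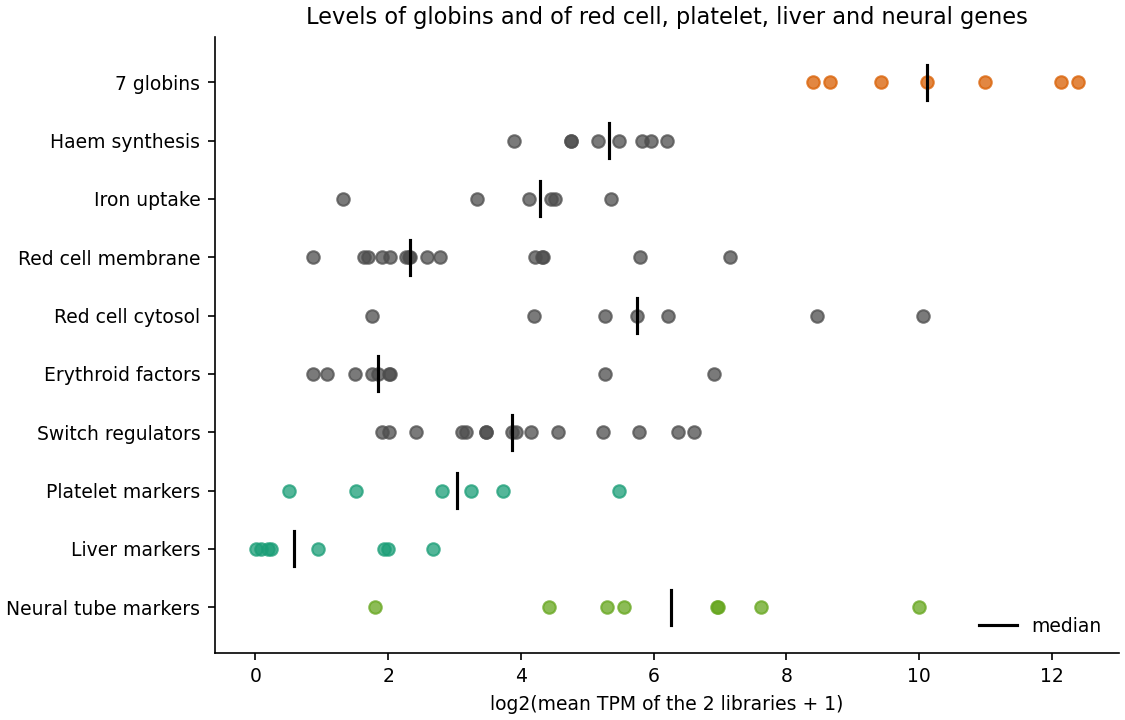
Levels as log2(mean TPM of the 2 libraries + 1), x axis, with 1 point per gene and the median of each list as a line. The 7 globins lie between Hbb-bs at 336 TPM and Hbb-y at 5365 TPM, while the medians of the haem, red cell and marker lists lie between 0.583 and 81.6 TPM.

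In TPM the adult globins were lower in replicate 2 than in replicate 1, as was the embryonic Hbb-y, while Hba-x and Hbb-bh1 were higher. On the log2 scale of TPM + 1, replicate 2 over replicate 1, all 4 adult genes were below 0, with a median of -0.12. They were -0.22 for Hbb-bs, -0.12 for Hba-a1, -0.11 for Hba-a2 and -0.07 for Hbb-bt. These genes are 2 near-identical pairs that share reads, so the 4 values are not separate observations. Summed, the adult alpha pair went from 6804 to 6281 TPM and the adult beta pair from 1064 to 982 TPM. The embryonic genes stood at 0.06 for Hba-x, 0.04 for Hbb-bh1 and -0.04 for Hbb-y, with a median of 0.04. The median was 0.03 over the 15735 genes that averaged 1 TPM or more, and 41.2% of them were lower in replicate 2. Expected counts gave the same signs for Hba-x, the adult genes and Hbb-y. Their ratio for Hbb-bh1 was 0.01, with an exact binomial 95% interval of -0.05 to 0.07. For Hbb-y the count ratio was -0.067 (-0.083 to -0.051), and for the adult Hbb-bt it was -0.099 (-0.143 to -0.055). The intervals of Hbb-y and Hbb-bt overlap.

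None of the 7 genes differed by over 2-fold, the limit that 1.43% of the 15735 genes passed. The deposited TPM intervals of the 2 libraries did not overlap for 5 of the 7: Hba-a1, Hba-a2, Hbb-y and Hbb-bs were lower in replicate 2 and Hba-x was higher. Over all 15735 genes, 4.19% were apart and lower and 10.1% apart and higher. Among the 1744 genes at 100 TPM or more the shares were 11.2% and 17.9%. That set is not matched to the members, which averaged 336 to 5365 TPM, and a share at their own levels was not computed. Of genes outside the globins, Prdx2 (1062 TPM) was also apart and lower, and Tubb3 (1017 TPM) apart and higher. These intervals cover the estimate within a library and not the spread between pools. They also belong to the posterior mean, which for 5 of the 7 genes lay far enough below the deposited TPM that the TPM was above its interval in both libraries.

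The members' ratios ran from -0.22 to 0.06, a range that enclosed those of 7587 genes, 48.2% of the genes compared. Of the genes at 100 TPM or more, the middle 90% lay between -0.14 and 0.16, and Hbb-bs was the member outside that range. The ratio of Hbb-bs alone rests on how reads were divided between the near-identical beta copies. With 2 libraries a gene's pattern is a single ratio, so no gene is named as most like the globins.

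Genes of the red cell lists were split between the directions, as were all genes, of which 41.2% were lower in replicate 2 (median 0.03). The 8 haem synthesis genes had 4 higher and 4 lower. Of 14 red cell membrane genes that averaged 1 TPM or more, 11 were higher in replicate 2 (median 0.15), and the deposited intervals were apart for 2 of them, Epb41 (133 and 150 TPM) and the anion exchanger Slc4a1 (15.5 and 19.6 TPM). Over the 5 lists of haem, iron, membrane, other red cell protein and factor genes together, 30 of 43 were higher and 13 lower (median 0.07). Red cell markers, which also belong to these lists, summed to 56.8 TPM in replicate 1 and 62.5 TPM in replicate 2. Of the 8 that averaged 1 TPM or more, 7 were higher in replicate 2 and 1 was lower (median 0.15). The intervals of 2 of these 8, Slc4a1 and Hemgn, were apart and higher, against 10.1% of all genes. The intervals of 4 of the 43 genes were apart and higher and of 1, Prdx2, apart and lower, near the shares over all genes.

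Of the 8 liver markers, the 3 that could be compared were lower in replicate 2, but all were low (highest Apoa2, mean 5.36 TPM). The rest averaged under 1 TPM. All 3 that averaged 1 TPM or more were lower (median -0.61), against 41.2% of all genes, and their intervals were apart for Afp (3.87 and 2.15 TPM) and Apoa1 (mean 2.81 ± 1.12 TPM), against 4.19% of all genes apart and lower. The 8 markers summed to 15.4 and 9.58 TPM, while adult globins summed to 7868 and 7262 TPM and embryonic globins to 6916 and 6840 TPM. Platelet markers summed to 69.4 and 76.2 TPM and leukocyte markers to 28.5 and 28.9 TPM. The part of these cell types in the globin difference was not tested.

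**Figure D5:**
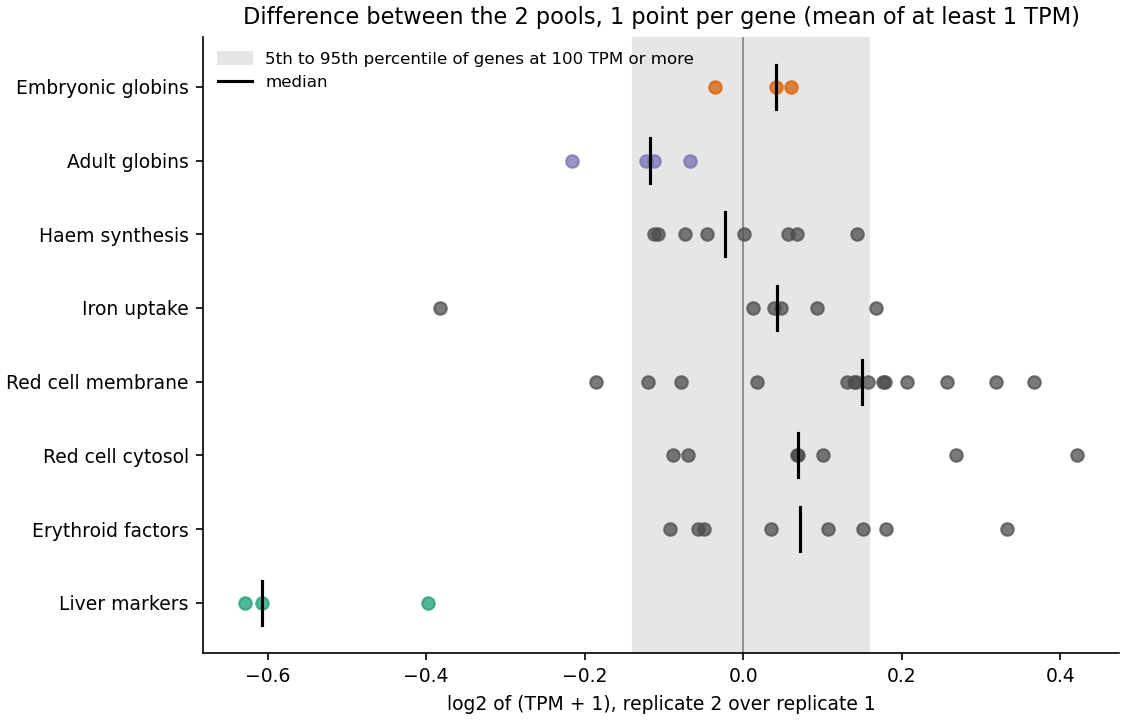
Difference between the pools as log2 of TPM + 1, replicate 2 over replicate 1 (x axis), with 1 point for each gene that averaged 1 TPM or more, list medians as black lines and the middle 90% of genes at 100 TPM or more as a grey band. All 4 adult globins, which are 2 near-identical pairs, lie below 0 (median -0.12), and the embryonic ones between -0.04 and 0.06. The 3 liver markers shown lie between -0.63 and -0.40.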

How the data were processed

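Total RNA from 2 pools of E12.5 neural tubes was sequenced, and the authors deposited a gene and a transcript table per library. The series' title says that a later series supersedes it, and that one was not used here. Per the deposited read-me text, reads were aligned to the transcriptome with mm10 and GENCODE M4. The quantifying program and any use of strand are not given in the sources used here. Overlapping and antisense transcripts therefore cannot be told apart. The deposited expected counts are estimates of reads and need not be whole. The deposited TPM values scale these for depth and for an effective length 99 nucleotides below the length. A transcript's part of its gene is deposited as a percent. The deposited TPM intervals have no stated level.

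Names and coordinates came from GENCODE M21 (GRCm38), matched by identifier for 42462 of 43346 mouse genes. Spike-in and number-named rows were left out of count totals, but globin shares of the library in TPM were taken over all rows. Shares and ratios were computed per library in Python 3.11.15 with pandas 2.3.3, and exact binomial intervals with scipy 1.17.1. Scaling alternatives used edgeR 4.0.16 (TMM) and DESeq2 1.42.0 on expected counts rounded to whole numbers. The pseudocount was 1 and the minimum for ratios a mean of 1 TPM. The comparison of ratios was tested on simulated data. Intervals cover counting error, since the tables carry no molecular identifiers.

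The members, lists and named genes were chosen with earlier results of these data known. All members and other globins are named. For the haem, iron, red cell, factor and switching lists the 3 highest genes and the lowest are named, and for marker lists the highest. Some genes that this rule takes are withheld and not reported. Alas2, Gata1, Klf1, Sox6, Slc4a1, Afp, Apoa1 and Hnf4a are named in addition, after their values were seen. Alternatives were the unit, the estimator, the pseudocount, the low-level minimum, the scaling, the longest coding transcript, other globins added, and leaving out each replicate.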

Additional observations from a re-analysis of the deposited data

How the results depend on the processing

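No paired analysis was possible because there is 1 group of 2 libraries. In place of TPM, expected counts gave a mean embryonic share of alpha-type globin of 19.6%, an alpha-type to beta-type ratio of 0.965 and a globin share of the library of 0.466%. The longest coding transcript alone gave an embryonic share of beta-type globin of 87.9%, a ratio of 0.893 and a library share of 1.24%. Gene counts over the length of that transcript, an alternative chosen after seeing the data, gave 85.9% and 1.05. The number of genes over 2-fold apart between pools, 225, became 361 with a pseudocount of 0.1, 381 with no minimum level, 102 with posterior mean TPM and 28 with CPM under either TMM or DESeq2 scaling, and included none of the 7 globins in the comparison on TPM. The other 17 checks of the main values moved by less than the spread between the libraries. A count of genes was taken as moved from 1.5 times on, and every alternative moved it. With 2 libraries, leaving out either moves a mean by less than their SD by construction. No share or ratio of the members has an error from more than 2 pools, and the levels of single adult copies rest on the division of shared reads.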

Other observations

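The nearest genes outside the globin families were also read, a set chosen after values had been seen. Within 50 kb of the alpha cluster, which spans 20899 bp from Hba-x to Hba-a2, Nprl3, whose introns are known to hold the enhancers of the alpha globins, stood at 34.2 and 38.4 TPM. Mpg, a DNA repair gene beside it, stood at 25.1 ± 0.156 TPM. Around the beta cluster the 5 olfactory receptor genes Olfr64, Olfr66, Olfr67, Olfr68 and Olfr69 had 0 counts in both libraries, whereas Hbb-bt and Hbb-y, the outermost members, stood at 687 and 5365 TPM on average. The pseudogene Gm15115 had 0 counts as well, and the pseudogene Dnajc19-ps stood at 1.58 and 1.91 TPM.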
